A study of Mus musculus with 4 samples.

Results

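Amacrine cells and bipolar cells of the mouse retina were compared, gene by gene and isoform by isoform, in long-read single-cell data. A gene entered the comparison when it had 100 or more counts in the amacrine cell column and 100 or more in the bipolar cell column of a table of isoform counts by cell class, and 5437 of 16702 gene identifiers did. Of these, 5274 had an Ensembl identifier and 163 had only a position as a name. They held 97.6% of the counts of amacrine cells and 98.1% of those of bipolar cells.

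The tissue was retina of male wild-type mice of the C57BL6/J strain, dissociated with papain. Of 4 libraries, 2 had no enrichment, 1 of them from postnatal day 40 and 1 with no age given, 1 had CD73 enrichment at postnatal week 8 and 1 had CD90.2 enrichment at postnatal month 4. The protocol describes the CD73 step as a depletion. Photoreceptors carry CD73 on their surface, and CD90.2, the product of Thy1, is found on neurons. The mice were wild type, but the enrichment, which the labels give as the treatment, differed between libraries. The class columns name no library, so each class is 1 pooled value, and class, library, enrichment and age cannot be told apart. No test was possible without replicates. Differences are given by size, with exact 95% intervals that cover counting error only.

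Bipolar cells carry the photoreceptor signal to the inner retina and release glutamate at ribbon synapses. ON bipolar cells invert that signal through the receptor mGluR6, whose G protein cascade closes the channel TRPM1. Amacrine cells are inhibitory interneurons that release GABA or glycine, often with a neuropeptide, and contact bipolar, ganglion and other amacrine cells through conventional synapses.

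Some isoform differences between the classes lay in short coding exons, and the sequences of 6 of them are shown first because they are short enough to be read whole. They are read 5′ to 3′ on the transcript strand from GENCODE M21 transcripts of mouse build GRCm38. Capitals mark the exon whose inclusion differed between the classes, and lower-case letters mark the coding bases of the neighbouring exons; for Vps29 the exon alone is shown.
Vps29, 12 nt, chr5:122356794-122356805, plus strand: GCTGGGCACAGA
Nsfl1c, 6 nt, chr2:151502455-151502460, plus strand: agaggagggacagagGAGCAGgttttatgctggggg
Ewsr1, 18 nt, chr11:5091460-5091477, minus strand: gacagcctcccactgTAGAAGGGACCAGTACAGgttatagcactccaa
Impdh1, 17 nt, chr6:29201888-29201904, minus strand: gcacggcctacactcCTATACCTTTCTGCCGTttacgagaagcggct
Arfgap1, 30 nt, chr2:180978412-180978441, plus strand: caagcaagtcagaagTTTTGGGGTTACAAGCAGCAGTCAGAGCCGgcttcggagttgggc
Grin1, 63 nt, chr2:25311343-25311405, minus strand: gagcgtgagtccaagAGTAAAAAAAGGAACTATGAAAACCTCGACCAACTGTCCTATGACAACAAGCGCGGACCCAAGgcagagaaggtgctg

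A pair of exons of Pkm, the pyruvate kinase gene of glycolysis, is shown because each transcript carries 1 of the 2, the choice that separates the M1 from the M2 enzyme. Both are 167 nt long, 103 of the 167 positions are equal (61.7%), and capitals mark the 64 that differ.
Pkm, first of the pair, M1 enzyme, chr9:59675029-59675195, plus strand: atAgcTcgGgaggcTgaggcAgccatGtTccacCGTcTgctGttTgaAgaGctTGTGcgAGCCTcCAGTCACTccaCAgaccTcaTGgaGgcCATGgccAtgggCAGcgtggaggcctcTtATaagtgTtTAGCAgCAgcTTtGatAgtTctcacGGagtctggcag
Pkm, second of the pair, M2 enzyme, chr9:59675568-59675734, plus strand: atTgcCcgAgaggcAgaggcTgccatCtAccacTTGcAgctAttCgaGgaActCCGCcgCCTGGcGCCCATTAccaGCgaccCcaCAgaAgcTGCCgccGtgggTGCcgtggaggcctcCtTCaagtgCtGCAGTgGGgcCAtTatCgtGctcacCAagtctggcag

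The amacrine column held 48248340 counts and the bipolar column 29010038, so 100 counts stand for 2.07 and 3.45 CPM (counts per 1000000), and a count of 0 allows up to 0.0622 and 0.103 CPM (3 counts). The column names matched their defining genes. The 6 amacrine markers summed to 416 CPM in amacrine and 3.24 CPM in bipolar cells, with Tfap2a and Tfap2c at 0 in bipolar cells. The 6 bipolar markers summed to 103 and 23972 CPM, with Grm6 and Trpm1 at 0 in amacrine cells. Pcp2 alone made up 97.5 and 23352 CPM of these bipolar marker sums, and each of the 6 was highest in the bipolar column. Markers of other cells were present at unequal levels. Summed over lists of 6 genes, rod markers were at 189 CPM in amacrine and 565 CPM in bipolar cells (0.633% and 1.89% of their level in the rod column), cone markers at 61.1 and 823 CPM, ganglion cell markers at 693 and 29.9 CPM, Müller glia markers at 981 and 390 CPM and microglia markers at 54.8 and 153 CPM. The 4 red blood cell genes summed to 27.5 and 1621 CPM. Except for rod RNA, which was subtracted in an alternative given below, the part of these cells in the differences was not tested.

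Most genes were at similar levels in the 2 classes. The log2 ratio of CPM, amacrine over bipolar, had a median of -0.04 over the 5437 genes, with quartiles of -0.86 and 0.76, and 3199 genes (58.8%) were within 2-fold. A difference of 4-fold or more was found in 675 genes (12.4%): 285 were higher in amacrine cells (5.24% of genes compared) and 390 in bipolar cells (7.17%). At 16-fold the numbers were 20 and 50. The genes higher in bipolar cells made up 12.4% of that column's counts and 1.25% of the amacrine column's, while the genes higher in amacrine cells made up 8.21% of their own column and 1.27% of the bipolar one. With both columns thinned to equal totals, which leaves fewer genes over the minimum, 285 genes were higher in amacrine cells and 281 in bipolar cells. After subtraction of rod counts in proportion to the rod markers, an alternative chosen after seeing the data, the numbers were 289 and 367. Of the genes named below, Rd3 and Hbb-bs then no longer had 100 amacrine counts and were not compared.

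**Figure D1:**
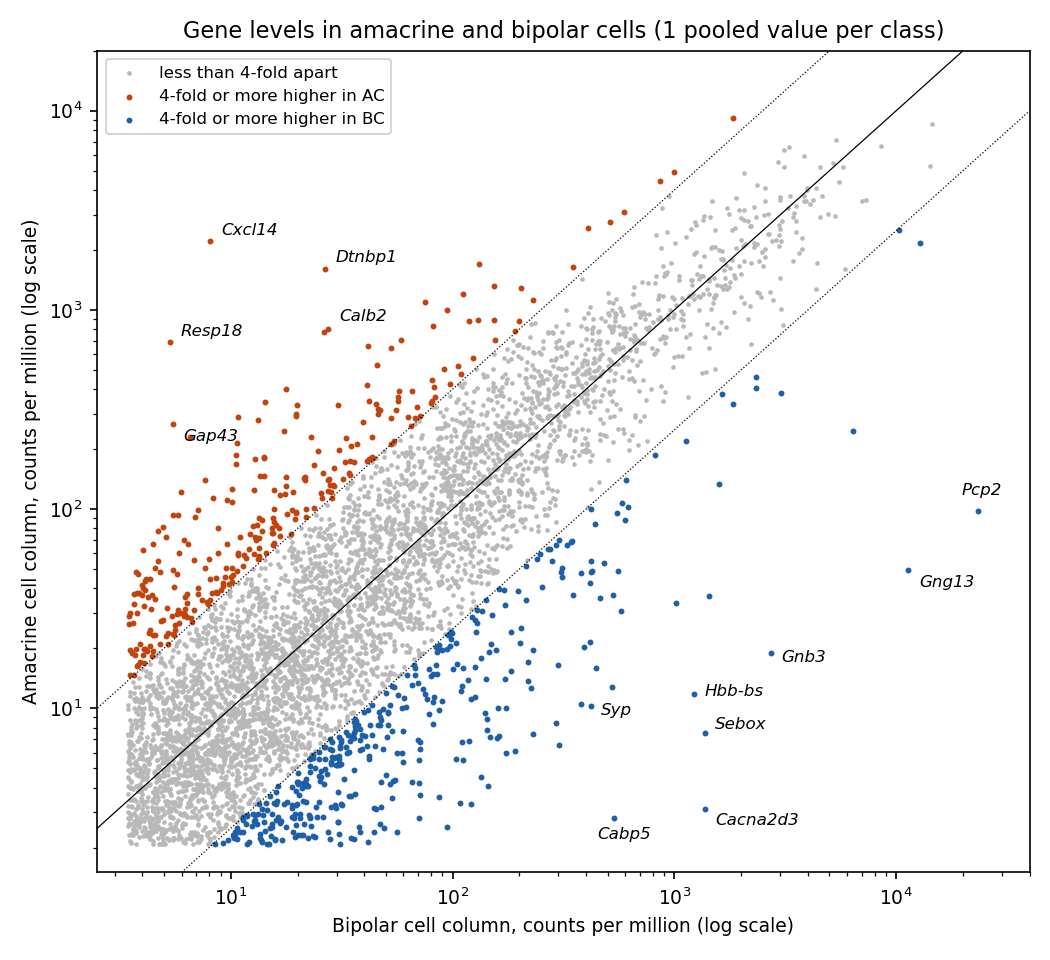
Level of each of the 5437 genes in bipolar cells (x axis) and amacrine cells (y axis), both in CPM on log scales, 1 point per gene; the solid line marks equal levels, dotted lines a 4-fold difference. Most points lie between the dotted lines, 285 genes lie above them and 390 below, with Cxcl14 at 2223 CPM in amacrine cells and Pcp2 at 23352 CPM in bipolar cells among the farthest.

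The largest ratio toward amacrine cells belonged to a secreted protein. Cxcl14, a chemokine (ENSMUSG00000021508.11, chromosome 13, 56288643 to 56296551), had 107253 counts in amacrine cells and 235 in bipolar cells, or 2223 and 8.10 CPM (log2 ratio 8.10, interval 7.92 to 8.29). Resp18, a protein of neuroendocrine secretory granules (chromosome 1, 75272199 to 75278415), was at 689 and 5.31 CPM (7.02, 6.79 to 7.26). Dtnbp1, which encodes dysbindin of the BLOC-1 trafficking complex, was at 1613 and 26.7 CPM (5.92, 5.82 to 6.02). Gap43, a growth-associated protein of axons, was at 267 and 5.48 CPM (5.61), and Ptn, the growth factor pleiotrophin, at 772 and 26.4 CPM (4.87). Calb2, the calcium buffer calretinin, was at 802 and 27.6 CPM (4.86). Also among the largest ratios were the RNA-binding protein gene Csdc2 (5.12), Lhfp (4.75), the retinoic acid-binding protein gene Crabp1 (4.49), the adenylate kinase gene Ak1 (4.41) and the endosomal tethering gene Vps8 (4.35). For Cxcl14, Dtnbp1, Ptn, Crabp1, Ak1, Lhfp and Vps8 the amacrine level was above that of all 5 other columns. For Resp18, Gap43, Csdc2 and Calb2 it was exceeded in ganglion cells, where Calb2 reached 23012 CPM.

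Toward bipolar cells, the largest ratio belonged to a calcium channel subunit. Cacna2d3, an auxiliary subunit of voltage-gated calcium channels (ENSMUSG00000021991.9, chromosome 14, 28904943 to 29721864), had 151 counts in amacrine and 39681 in bipolar cells, or 3.13 and 1368 CPM (log2 ratio -8.77, interval -9.01 to -8.54). Pcp2, a modulator of the G protein Go found in ON bipolar cells (chromosome 8, 3623371 to 3625545), was at 97.5 and 23352 CPM (-7.90, -7.95 to -7.86). Gng13 and Gnb3, the γ and β subunits that pair with Go, were at 49.3 and 11346 CPM (-7.85) and at 18.9 and 2717 CPM (-7.17). Cabp5, a calcium-binding protein of bipolar cells, was at 2.82 and 533 CPM (-7.56), and Sebox, a homeobox gene, at 7.48 and 1371 CPM (-7.52). Exons of Pcp2 and Gng13 overlap those of Pet100 and Chtf18 on the opposite strand, which had at most 189 counts in either column. Hbb-bs, a β-globin gene of red blood cells with the near-identical copy Hbb-bt, was at 11.8 and 1227 CPM (-6.70) and was highest in the Müller glia column, at 10259 CPM. The rest of these 12 were Rd3, a regulator of photoreceptor guanylate cyclase (-5.53), the vesicle protein gene Syp (-5.36), Plk5 (-5.36), the glutaminyl cyclase gene Qpct (-5.29) and Cpq (-5.23). Rd3 was at 302 CPM in bipolar cells and above 700 CPM in rods (732) and cones (734), and Gnb3 was at 4654 CPM in cones. For Cacna2d3, Pcp2, Gng13, Cabp5, Sebox, Syp, Plk5 and Qpct the bipolar level was above all 5 other columns.

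Genes most tied to 1 class often fell under 100 counts in the other and so were not compared. There were 1699 genes with 100 or more counts only in amacrine cells, 91 of them at 0 in bipolar cells, and 743 only in bipolar cells, 56 of them at 0 in amacrine cells. The most abundant of the first were the neuropeptide genes Npy (1035 and 2.10 CPM in amacrine and bipolar cells) and Tac1 (493 and 2.21), the synaptic organizer gene C1ql2 (420 and 0.310), Nrsn2 (343 and 1.79) and Thy1 (317 and 1.59), whose product was used for the enrichment of 1 library. Those of the second were Gsg1 (1.97 and 1141 CPM), the troponin gene Tnnt1 (1.02 and 600), the calcium-binding protein gene Scgn (1.68 and 401), and the GABA-C receptor genes Gabrr1 (0.435 and 382) and Gabrr2 (0.767 and 380). Just inside the minimum were Rbp4 with 103, Igf1 with 106 and Slc12a5 with 108 amacrine counts, and Gdap1l1 and Gria4 with 101 and N4bp2l1 with 102 bipolar counts. Just outside were Gsg1 with 95, Ntrk2 with 90 and Sgpp2 with 89 amacrine counts, and Shisa5 with 99 and Nudt11 and Rimklb with 98 bipolar counts.

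Gene lists were then read by the role of their products. Their counts at 4-fold stand against 5.24% of all genes compared higher in amacrine and 7.17% in bipolar cells. A list gene with 100 counts in 1 class only passed through the class where it is high, so its difference was set by the selection. Of all 16702 gene identifiers, 1699 were of this kind for amacrine and 743 for bipolar cells, and the list counts of this kind are descriptions. Of the 10 genes for GABA and glycine synthesis and transport present in the data, 5 reached 100 counts in amacrine cells only. Shmt2 of glycine metabolism was the 1 that did in both (9.47 and 5.00 CPM, log2 ratio 0.92). Gad1, which makes GABA, had 4224 amacrine and 5 bipolar counts (87.5 and 0.172 CPM). Slc32a1, the vesicular transporter of GABA and glycine, had 1848 and 11 counts, and Slc6a9, the glycine transporter that marks glycinergic amacrine cells, 692 and 9. Th, the dopamine-making enzyme, had 268 amacrine counts and 0 bipolar counts.

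Neuropeptide and secretory genes went in both directions. Of 10 compared, 3, Cxcl14 among them, were 4-fold or more higher in amacrine cells and 4 in bipolar cells, with a median log2 ratio of -1.73 against -0.04 over all genes. Cartpt, the CART peptide precursor, was at 647 and 52.7 CPM (3.62), and Pcsk1n, an inhibitor of a prohormone convertase, at 4438 and 862 CPM (2.36). The granins, proteins of dense-core vesicles, were on the bipolar side: Chgb was at 33.9 and 1019 CPM (-4.91), Scg2 at 7.40 and 230 CPM (-4.96) and Chga at 68.7 and 341 CPM (-2.31). Cck, the cholecystokinin precursor, was at 503 CPM in amacrine and 1528 CPM in bipolar cells (-1.60). Vip, a peptide of a group of amacrine cells, had 9549 amacrine and 8 bipolar counts.

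Receptors for the inhibitory transmitters were divided by subunit. Of 23 subunit genes in the table, 6 were compared (median -0.09; 1 was 4-fold higher in each class), 9 reached 100 counts in amacrine cells only and 5 in bipolar cells only. The ρ subunits of the GABA-C receptor, Gabrr1, Gabrr2 and Gabrr3, were all on the bipolar side, Gabrr3 with 1 amacrine and 818 bipolar counts. Gabra2 had 1160 amacrine counts and 1 bipolar count, while the glycine receptor genes Glra2 and Glra3 had 1645 and 1062 amacrine counts and 8 and 0 bipolar counts. Among the subunits compared, Gabrd was at 24.2 and 7.89 CPM (1.62). Gabbr1, a subunit of the metabotropic GABA-B receptor, was at 40.4 and 4.03 CPM (3.32).

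Receptors and signalling for glutamate also differed. Of the ionotropic and metabotropic subunits, Gria4 of the AMPA receptor was at 26.4 and 3.48 CPM (2.92) and Grin1, the obligatory NMDA receptor subunit, at 5.35 and 11.0 CPM (-1.04). Cacng3, an auxiliary AMPA receptor subunit, had 9850 amacrine and 24 bipolar counts, and Grik1, a kainate receptor subunit of OFF bipolar cells, 23 and 400. In the mGluR6 complex, 3 of 6 genes compared were 4-fold or more higher in bipolar cells and 0 in amacrine cells (median -4.54). Of the 14 present in the data, 5 more had 100 counts in bipolar cells only. Grm6, the receptor, had 0 amacrine and 569 bipolar counts, and the channel gene Trpm1 0 and 118. The members shared with other neurons were closer: Gnao1, the α subunit of Go, was at 2.74 and 10.3 CPM (-1.91), and the regulators of G protein signalling Rgs7 and Gnb5 at -0.68 and -1.40.

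**Figure D2:**
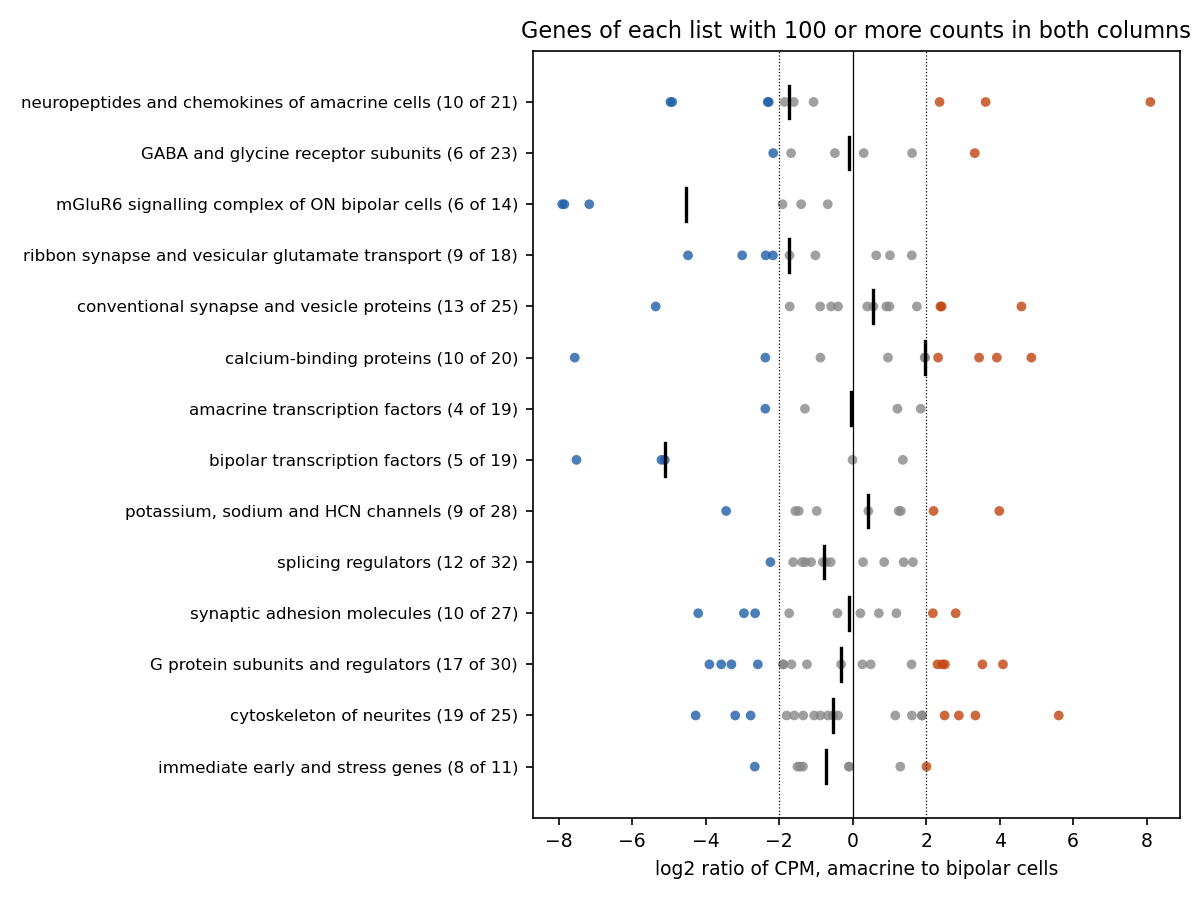
Log2 ratio of CPM, amacrine over bipolar cells (x axis), for the genes of 14 lists with 100 or more counts in both columns, 1 point per gene, orange or blue at 4-fold or more (dotted lines), with the list's median as a bar and the number compared of those in the table in brackets. The mGluR6 complex and bipolar transcription factors have medians of -4.54 and -5.11, calcium-binding proteins one of 1.97.

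Release machinery was read by synapse type. Of 9 ribbon synapse genes compared, 4 were 4-fold or more higher in bipolar cells and 0 in amacrine cells (median -1.72), against 7.17% and 5.24% of all genes. Cplx4, a complexin of ribbon synapses, was at 7.27 and 162 CPM (-4.48), and Stx3, the syntaxin of ribbon synapses, at 19.5 and 157 CPM (-3.01). Ctbp2, the gene of the ribbon protein ribeye and of a widely used transcriptional corepressor, was higher in amacrine cells, at 21.6 and 7.07 CPM (1.61). Of 13 conventional synapse genes compared, 3 were 4-fold or more higher in amacrine cells and 1 in bipolar cells (median 0.56). Of the 25 present in the data, 8 more reached 100 counts in amacrine cells only. Snap25 and Vamp2, core proteins of vesicle fusion, were at 3114 and 595 CPM (2.39) and at 2749 and 513 CPM (2.42). Cplx1, a complexin of conventional synapses, had 4220 amacrine and 33 bipolar counts. The 1 gene 4-fold or more higher in bipolar cells was Syp, the vesicle protein synaptophysin, at 10.2 and 421 CPM. At 2-fold or more, 5 of the 13 were higher in amacrine and 2 in bipolar cells, against 19.8% and 21.4% of all genes.

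Calcium-binding proteins had the highest median among the lists with 6 or more genes compared, 1.97, with 4 of 10 genes 4-fold or more higher in amacrine cells and 2 in bipolar cells. Besides Calb2, Vsnl1, a visinin-like calcium sensor, was at 300 and 19.8 CPM (3.92), and Calm3 and Calm2, 2 of the genes for calmodulin, at 1209 and 111 CPM (3.44) and at 9218 and 1840 CPM (2.32). On the bipolar side, Cabp5 was joined by Cabp2, with 39 amacrine and 9882 bipolar counts, and by Rcvrn, the photoreceptor protein recoverin that is also found in some bipolar cells, at 84.3 and 438 CPM (-2.38). Rod markers summed to 565 CPM in the bipolar and 189 CPM in the amacrine column, and their part in the level of Rcvrn was not tested.

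Transcription factors came next. Of 19 factors of the amacrine list present in the data, 8 reached 100 counts in amacrine cells only. Among them were Pax6 (14297 amacrine and 31 bipolar counts) and Tfap2b (13167 and 79). Prox1 was the 1 that did so in bipolar cells only (31 and 100). Of the 4 compared (median -0.04), 0 were 4-fold or more higher in amacrine cells, and Zbtb20 was so in bipolar cells, at 6.38 and 33.2 CPM (-2.38). Of 19 factors of the bipolar list present in the data, 11 reached 100 counts in bipolar cells only, among them Otx2 (14 and 1400) and Lhx4 (14 and 1989). Of the 5 bipolar factors compared, Sebox, Neurod4 and Neurod1 were 4-fold or more higher in bipolar cells, the last 2 at 3.295 and 122 CPM (-5.20) and at 8.44 and 292 CPM (-5.11). Six6, a factor of retinal identity, was at 192 and 193 CPM, and Fezf2, known in a type of OFF bipolar cell, was at 15.0 CPM in amacrine cells and 5.83 CPM in bipolar cells (1.37).

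Among ion channels, Kcna6, a potassium channel subunit, was at 662 and 41.7 CPM (3.99) and Kcnb2 at 4.60 and 50.1 CPM (-3.44). Kcnip1, a potassium channel-interacting protein, had 11078 amacrine and 12 bipolar counts. Kcnma1, the large-conductance calcium-activated potassium channel, had 5 and 1947. Over the 9 channel genes compared the median was 0.43. G protein subunits differed by member. Gng2, Gnb2 and Gng3 were higher in amacrine cells, at log2 ratios of 4.09, 3.53 and 2.31, and Gng5 was higher in bipolar cells (-2.58), as were Rgs16 (-3.58) and Prkca, the protein kinase C of rod bipolar cells, at 2.09 and 31.2 CPM (-3.90).

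Synaptic adhesion molecules and cytoskeletal genes were found on both sides. The contactin genes Cntn5 (7.75 and 143 CPM, -4.20) and Cntn1 (-2.66) and the contactin-associated gene Cntnap2 (-2.96) were higher in bipolar cells. The receptor phosphatase gene Ptprd (166 and 23.9 CPM, 2.80) and Cadm3 (2.18) were higher in amacrine cells. Of the 8032 amacrine counts of Ptprd, 6657 were of a 2-exon isoform annotated as a retained intron. The Ptprd isoform with the most bipolar counts went the other way, at 3.36 CPM in amacrine and 21.96 CPM in bipolar cells. Of 19 cytoskeletal genes compared, 4 were 4-fold or more higher in amacrine cells and 3 in bipolar cells (median -0.53), against 5.24% and 7.17% of all genes. Stmn4, a stathmin of growing neurites, was at 418 and 41.3 CPM (3.34), and the tubulin gene Tubb2b at 20.3 and 393 CPM (-4.27). The 8 immediate early and stress genes compared had a median of -0.73. At 2-fold or more, 2 were higher in amacrine and 4 in bipolar cells, against 19.8% and 21.4% of all genes compared. Egr1 was 4-fold higher in amacrine cells (2.01) and Hsp90aa1 in bipolar cells (-2.66), while Jun and Nr4a1 were at -0.10 each.

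Genes higher in amacrine cells were mostly also high in ganglion cells. Of the 4 other columns, ganglion cells had the highest level for 229 of the 285 genes (80.4%), against 32% of all genes compared. For the 390 genes higher in bipolar cells, the highest of the 4 was Müller glia in 141 (36.2%), rods in 113 (29.0%), cones in 109 (27.9%) and ganglion cells in 27 (6.92%). The class itself was above all 5 others for 168 of the amacrine genes (58.9%) and 185 of the bipolar genes (47.4%). These genes were selected for a high level in that class, which favours this outcome. The same share over all genes compared was not counted, so these percentages are descriptions. The ganglion column was the shallowest, at 3509890 counts, and had 0 counts on the 6 rod markers.

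**Figure D3:**
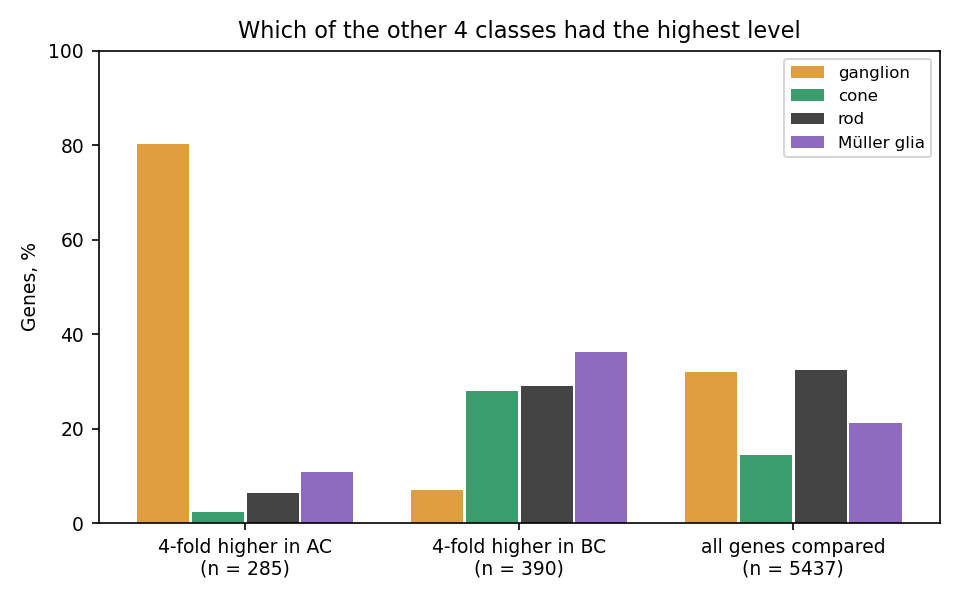
Share of genes, in percent, for which ganglion cells, cones, rods or Müller glia had the highest level among these 4 classes, for the genes 4-fold or more higher in amacrine cells, in bipolar cells, and all genes compared. Ganglion cells lead for 80.4% of the first set and 6.92% of the second, against 32% of all genes.

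Isoform use was compared in the 3746 genes with 2 or more isoforms, which had 13723 isoforms. The largest difference in an isoform's share of its gene's counts had a median of 9.38 percentage points, and was under 10 points in 1937 genes (51.7%). It was 25 points or more in 692 genes (18.5%), and in 292 of those the leading isoform, the one with the most counts, was the same in both classes. The leading isoform differed in 562 genes (15%), and by 50 points or more in 136 (3.63%). Coverage bears on these counts: 68 of the 136 genes had under 200 counts in the shallower column, and of 1270 genes with 1000 or more counts in both columns, 15 differed by 50 points or more. With Ensembl transcripts only, so without the isoforms the study assembled, 278 genes had a share difference of 25 points and 57 another leading isoform by 50 points. Among the genes that also differed 4-fold in level, 96 of 430 (22.3%) had a share difference of 25 points, against 596 of 3316 (17.97%) of the others. The first had a median of 298 counts in the shallower column and the second 547.5.

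The form of the difference was read for the 130 of these 136 genes whose leading isoforms both had a structure. The first exon differed in 65 (50%), the last exon in 45 (34.6%) and an internal exon was skipped in 44 (33.8%), and a gene could have several. An intron was retained in 3, and an alternative 5′ or 3′ splice site was used in 4 each. The amacrine leading isoform was the longer in 80 genes and the bipolar one in 49, with medians of 1901 and 1391.5 nt. In the other columns, where both isoforms together had 20 or more counts, the amacrine leading isoform was ahead in ganglion cells for 56 of 63 genes (88.9%), in Müller glia for 25 of 81 (30.9%), in rods for 38 of 125 (30.4%) and in cones for 11 of 95 (11.6%). Over all 546 genes with another leading isoform and both structures, the order of forms differed. An internal exon was skipped in 210 (38.5%), the first exon differed in 165 (30.2%) and the last in 151 (27.7%). An alternative 5′ splice site was used in 47 (8.61%) and a 3′ one in 52 (9.52%). The amacrine leading isoform was the longer in 300 of them and the bipolar one in 244, with medians of 1805.5 and 1627.5 nt.

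Exon skipping set the leading isoforms apart in several well-covered genes. Vps29, a subunit of the retromer complex that recycles cargo from endosomes, included the 12-nt exon shown above in 7.35% of 16891 amacrine counts and in 89.0% of 12661 bipolar counts (intervals 6.96 to 7.76% and 88.4 to 89.5%). Inclusion was 4.67% in ganglion cells, 47.5% in Müller glia, 59.7% in rods and 81.1% in cones, so amacrine and ganglion cells were at one end and bipolar cells and cones at the other. Fam216a, whose exons overlap Vps29 on the opposite strand, had 13080 amacrine and 2683 bipolar counts of its own. Nsfl1c, a cofactor (p47) of the ATPase p97, went the other way: its 6-nt exon was in 97.8% of amacrine counts (97.5 to 98.1%) and 23.2% of bipolar counts (22.3 to 24.3%), and in 99.1% of ganglion cell, 35.2% of Müller glia, 32.02% of rod and 30.9% of cone counts.

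Ewsr1, an RNA-binding protein of the FET family, had 3053 amacrine counts with its 18-nt exon and 1512 without (66.9%), and 21 and 4191 bipolar counts (0.499%). A 5-exon form counted as neither held 1992 of 6557 amacrine, 15 of 4227 bipolar and 151 of 296 ganglion cell counts. Of all counts of the gene, the isoform with the exon held 46.6% in amacrine, 0.497% in bipolar and 32.8% in ganglion cells. Exons of Rhbdd3, with 1071 amacrine and 325 bipolar counts, overlap Ewsr1 on the opposite strand. Inclusion of the 18-nt exon, with the 5-exon form left out, was 66.9% in ganglion cells, 1.41% in rods and 1.86% in cones, and in Müller glia 0 of 319 counts. In Impdh1, which makes guanine nucleotides and whose photoreceptor isoforms carry added exons, the 17-nt exon was in 19.9% of amacrine counts and 76.3% of bipolar counts, against 95.4% in rods, 92.0% in cones and 0 of 44 ganglion cell counts. The 30-nt exon of Arfgap1, a GTPase activator of the Golgi, was in 92.9% of 716 amacrine and 5.95% of 168 bipolar counts. In Grin1, the leading isoform was the same in both classes, but the 63-nt exon, the N1 cassette of the NMDA receptor, was included in 95 and skipped in 122 amacrine counts (43.8%, 37.1 to 50.7%), and included in 1 and skipped in 315 bipolar counts (0.316%, 0.00801 to 1.75%). Impdh1 and Grin1, like Pkm, Bsg, Fgf13, Map4 and Srsf10 below, were chosen after their values were seen.

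The paired exons of Pkm were used in opposite proportions. The first of the pair was in 11963 of 19470 amacrine counts (61.4%, 60.8 to 62.1%) and in 6341 of 67481 bipolar counts (9.40%, 9.18 to 9.62%). The second was in 38.6% and 90.6%. Ganglion cells used the first in 99.8% of counts, and rods, Müller glia and cones in 8.35%, 6.61% and 6.38%. Amacrine cells thus lay between ganglion cells and the other 4 classes. The whole gene was at 404 CPM in amacrine and 2326 CPM in bipolar cells. In Bsg, the gene of basigin, a partner of lactate transporters whose photoreceptor form has an added immunoglobulin domain, the isoform without the 348-nt exon held 80.5% of amacrine and 37.1% of bipolar counts. The isoform with it was at 85.8% in rods and 87.2% in cones. With rod counts subtracted in proportion to the rod markers, the difference in this share was 43.6 points.

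**Figure D4:**
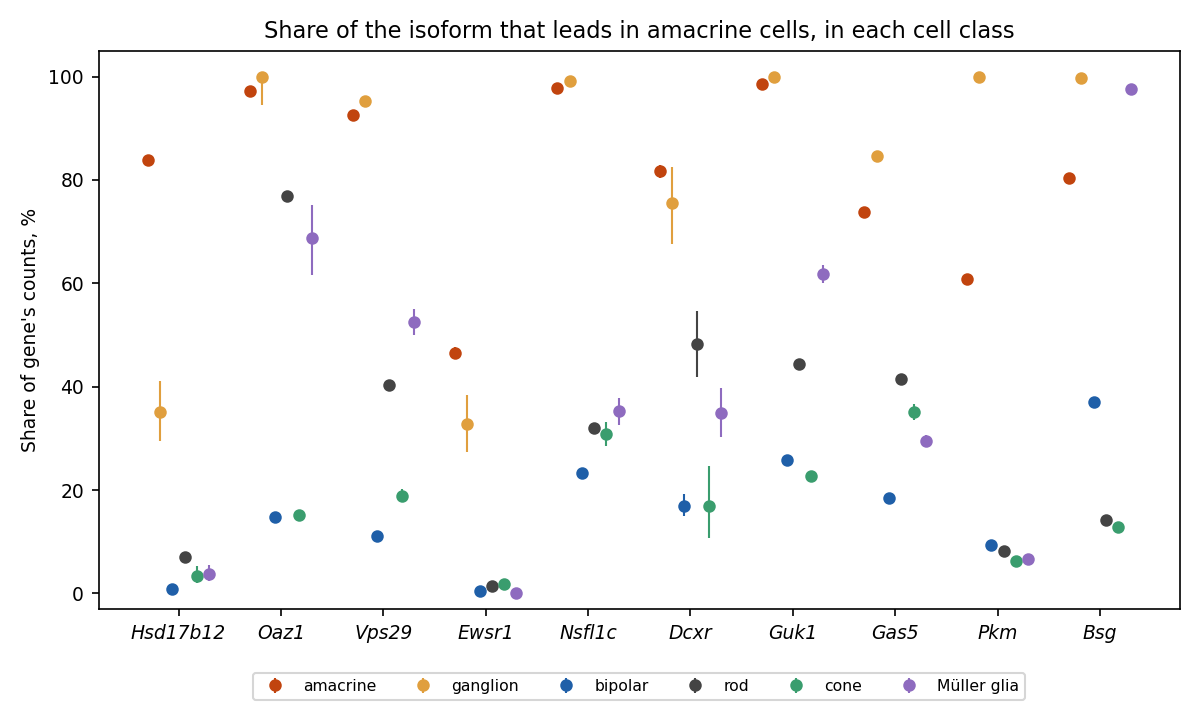
Share of a gene's counts, in percent, held by the isoform that leads in amacrine cells, for 10 genes in the 6 cell classes; points are pooled counts and bars are exact 95% intervals for counting error only. Ganglion cells lie near amacrine cells for Vps29, Nsfl1c and Guk1, while for Pkm amacrine cells (60.9%) lie between ganglion cells and the other 4 classes.

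First and last exons accounted for further differences. Hsd17b12, an enzyme of long-chain fatty acid elongation, was read in amacrine cells mainly as an 8-exon transcript that starts inside the gene (84.0% of 24476 counts) and in bipolar cells as the 11-exon transcript with the upstream start (99.1% of 2653). The short form was annotated as a processed transcript, and it was at 35.1% in ganglion cells and at most 7.04% in rods, cones and Müller glia. Guk1, guanylate kinase, had 8 exons in both leading isoforms but another first exon, and the amacrine form held 98.6% of 40670 amacrine and 25.8% of 89503 bipolar counts. Oaz1, the antizyme that limits polyamine synthesis, differed in its first exon and in a 146-nt internal exon included in 2.72% of amacrine and 85.3% of bipolar counts. Fgf13, an intracellular regulator of sodium channels, had an isoform with a distant first exon at 75.6% of 5925 amacrine counts and 1 of 800 bipolar counts. It was at 1.55% in ganglion cells, so here amacrine and ganglion cells were far apart. Srsf10, a splicing factor, differed in its last exon, with the amacrine form at 63.2% and 8.80%, and Map4, a microtubule-associated protein, likewise at 88.7% and 22.8%.

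Some differences joined transcripts of different parts of a gene. In Ptprd the amacrine leading isoform had 2 exons (chromosome 4, 77923636 to 78211843; 6657 of 8032 amacrine and 50 of 692 bipolar counts) and the bipolar one had 5 (76140466 to 76449712; 162 and 637 counts), and the spans did not overlap. The amacrine form was annotated as a retained intron. Zfp365, a zinc finger gene, differed in its first exon, with the amacrine form at 93.1% of 348 amacrine and 8.94% of 4260 bipolar counts. Dcxr, dicarbonyl and L-xylulose reductase, differed in its first exon and in 3 internal exons. Exons of 155 and 98 nt were in 99.9% of amacrine and 25.04% of bipolar counts, and one of 65 nt in 18.3% and 82.7%. Its amacrine leading form held 81.7% and 17.02%, but with Ensembl transcripts only the difference was 12.6 points, and that of Mettl25 was 43.0 in place of 83.6 points. Gas5, a long noncoding RNA that hosts small nucleolar RNAs, skipped a 41-nt exon in the form that held 73.8% of 98846 amacrine and 18.4% of 42302 bipolar counts. Cacna2d4, Loxl1 and Acer2 had the amacrine form at 99%, 100% and 99.9% of amacrine counts and at 0%, 2.29% and 8.76% of bipolar counts. Of the remaining genes named by rule, Spp1, Mettl25, Wdr13, Wwp1, Zbtb14 and Zfp119b differed in share by 83.1 to 93.9 points, with between 118 and 587 counts in the shallower column.

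All alternative internal exons were then counted, in a step chosen after seeing the data. Between 5% and 95% inclusion in at least 1 class was found for 2968 exons of 1665 genes. Inclusion was 25 points or more higher in amacrine cells for 153 (5.15%) and in bipolar cells for 240 (8.09%). Of 85 exons of up to 27 nt, 9 were higher in amacrine and 10 in bipolar cells by that measure (22.4% in all), against 144 and 230 of 2883 longer exons (12.97%). Rps24, a ribosomal protein gene, included an 18-nt exon in 7.65% of 171878 amacrine and 42.4% of 211501 bipolar counts. Trappc13, of a vesicle-tethering complex, included an 18-nt exon in 11 of 781 amacrine counts (1.41%), and in bipolar cells it was included in 1015 and skipped in 865 (54.0%), and Arl6, a ciliary GTPase, a 13-nt exon in 66.6% and 98.2%. These 3 were chosen after their values were seen.

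**Figure D5:**
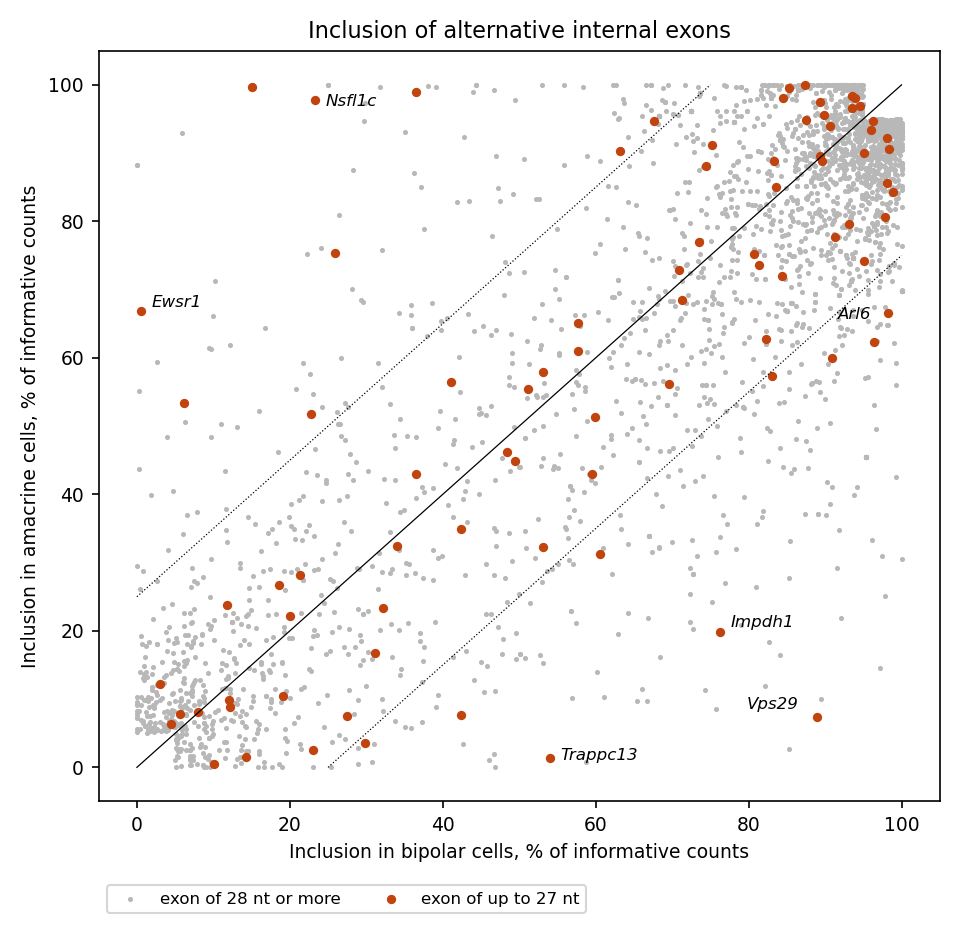
Inclusion of 2968 alternative internal exons in bipolar cells (x axis) and amacrine cells (y axis), in percent of informative counts, 1 point per exon, orange for exons of up to 27 nt; the solid line marks equal inclusion and dotted lines a difference of 25 points. Nsfl1c and Ewsr1 lie above the dotted lines and Vps29, Impdh1, Trappc13 and Arl6 below.

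Splicing regulators were read last. Of 32 regulators present in the data, 12 were compared. Of these, 0 were 4-fold or more higher in amacrine cells and 1 in bipolar cells (median -0.77), a share near the 7.17% of all genes. Another 12 of the 32 reached 100 counts in amacrine cells only and 2 in bipolar cells only, against 1699 and 743 of 16702 gene identifiers. Rbfox1, a neuronal splicing factor, had 5852 amacrine and 14 bipolar counts, Rbfox2 3720 and 56, the neuronal RNA-binding protein gene Elavl3 2735 and 4, and Khdrbs2 3639 and 35. In bipolar cells, Khdrbs3 had 312 counts against 3 in amacrine cells. Srrm4, the activator of neuronal microexons, was at 3.09 and 14.6 CPM (-2.24), and Srrm3 at 2.45 and 7.51 CPM (-1.62). Ptbp1 and Ptbp2, repressors of neuronal exons, were at -0.81 and -1.38. The relation of these levels to the exons above was not tested.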

How the data were processed

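The counts analysed are the deposited table of whole-number counts per isoform in 6 cell classes, made by the authors from nanopore long reads of 10x single-cell cDNA from 4 libraries. The genome was mm10, per the submitters' processing notes, and the deposited annotation of 44325 isoforms names FLAIR as its source, per the file contents. Whether a count is a read or a molecule, whether counting used strand, and how cells, doublets and classes were called are not given in the sources used here. Each class column was taken as 1 pooled value, since its name ties it to no library. Depth was 48248340 counts for amacrine and 29010038 for bipolar cells.

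Isoform counts were summed to genes by the last field of each identifier, scaled to CPM (counts per 1000000), and kept at 100 or more counts in both columns. Log2 ratios and shares have exact Clopper-Pearson 95% intervals. PCR copies are not independent molecules, so intervals and limits for a count of 0 cover counting error only. The calls used a 4-fold difference, 25 points of isoform share and, for a change of leading isoform, 50 points. Exon inclusion came from the isoform structures. Coordinates and sequences are from GENCODE M21 on GRCm38, the same assembly as mm10.

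Named genes were the 12 largest ratios in each direction with an Ensembl identifier and 20 CPM in the higher class, the 5 most abundant in each direction under the minimum, and the 12 largest changes of leading isoform plus 8 with 1000 counts in both columns. Some genes of the rule and lists are not reported here. Genes named outside this rule are said to be, or are members of lists. Members and gene lists were chosen with earlier results of these data known. Python 3.11.15, pandas 2.3.3, numpy 2.4.6, scipy 1.17.1 and matplotlib 3.10.9 were used. The calculations were tested on simulated data. Alternatives were other count minimums, equal depth, other scalings, other thresholds, other isoform sets and a subtraction of rod counts.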

Additional observations from a re-analysis of the deposited data

How the results depend on the processing

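No paired analysis was possible because the class columns carry no library, and for the same reason no replicate could be left out. Of 51 values for the main counts and the median under the alternatives, 28 stayed near the reported value and 23 moved, and the sign of the median changed at 500 counts and at equal totals. For the main counts this margin was wide: a fall from 390 to 281 genes higher in bipolar cells at equal totals was taken as near. With a minimum of 20 counts, 618 genes were higher in amacrine and 834 in bipolar cells, 1951 had a 25-point share difference and 568 a 50-point change of leading isoform. With 500 counts these were 110, 129, 210 and 33, and the median log2 ratio was 0.0437. The median was 0.0654 at equal totals, -0.0890 with the trimmed mean of M-values, -0.0940 with the median of ratios and -0.171 without the 100 largest genes, a shift of -0.13. By construction, 2-fold gave 1075 and 1163 genes and 8-fold 82 and 124, 15 and 40 points gave 1307 and 257, and 25 and 75 points for the leading isoform 397 and 29. Ensembl transcripts only gave 278 and 57, with fewer isoforms tested. For the named genes, 175 of 197 ratios stayed near the reported value and 0 changed sign. Of 204 leading share differences, 194 stayed near the reported value. These differences were taken without sign, so a reversal could not be seen in them. Subtracting rod counts, chosen after seeing the data, gave 289 and 367 genes by level and 689 and 138 by isoform. Apart from what each construction sets, the cause was not tested.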

Other observations

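Lists of genes of energy metabolism were added after seeing the data. At any size of difference, 16 of 17 glycolytic enzyme genes were higher in bipolar cells and 1 in amacrine cells. For subunit genes of oxidative phosphorylation the numbers were 52 and 39 of 91. The share of all genes at any size of difference was not counted, so these numbers are descriptions. Of 16 glycolytic enzyme genes compared, 5 were 4-fold or more higher in bipolar cells and 1 in amacrine cells, with a median log2 ratio of -1.06 against -0.04 over all genes, of which 7.17% and 5.24% were. Pfkp, a phosphofructokinase, was at 11.4 CPM in amacrine and 126 CPM in bipolar cells (-3.47), and Hk1, hexokinase, at -2.96. Ldhb, the lactate dehydrogenase subunit known for oxidative tissues, went the other way, at 832 and 81.9 CPM (3.35). Of 86 subunit genes of oxidative phosphorylation, 3 were 4-fold or more higher in bipolar cells and 0 in amacrine cells (median -0.11), no more than over all genes. These were Ndufs1 of complex I (-3.67), Atp5b of the ATP synthase (-2.34) and Uqcrc2 of complex III (-2.08).

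The 80 cytosolic ribosomal protein genes compared were all within 4-fold, from -1.51 for Rpl5 to 1.18 for Rpl17 (median -0.15). H3f3a and H3f3b, which encode the same histone H3.3, differed in opposite directions. H3f3a was at 1609 CPM in amacrine and 5868 CPM in bipolar cells (-1.87), and H3f3b at 4861 and 2050 CPM (1.25).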
